A study of Mus musculus with 6 samples.

Results

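Beta-catenin and its TCF/LEF partners form the transcriptional end of the canonical Wnt pathway, and 10 genes of that module were followed in long-term blood stem cells (LT-HSCs) of the mouse with and without the RNA-binding protein IMP1. The genes were taken by name, as Ctnnb1, Lef1, Tcf7, Tcf7l1, Tcf7l2, Axin1, Axin2, Lrp6, Apc and Gsk3b, among 21761 genes in the count table. All 10 were found in the table and 8 passed the filter on low counts. Lef1 and Tcf7 did not pass it. In the cells with IMP1, the transcripts of beta-catenin (Ctnnb1), of the factor TCF7L2 (Tcf7l2) and of the Wnt co-receptor LRP6 (Lrp6) stood 1.45, 1.71 and 1.63 times as high as in the control cells, with no overlap between the libraries of the groups. Of all tested genes, 10.7% were likewise higher in IMP1 without overlap, and 21.9% did not overlap in either direction. None of the differences of Ctnnb1, Tcf7l2 and Lrp6 passed the threshold of edgeR's test over all genes.

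In the absence of a Wnt ligand, beta-catenin is held in a destruction complex of axin, APC and the kinases GSK3 and casein kinase 1, is phosphorylated there, and is then degraded. A ligand bound to a Frizzled receptor and to LRP5 or LRP6 draws axin to the membrane, beta-catenin builds up, and in the nucleus it binds TCF/LEF proteins and turns their target genes on. In blood, the pathway is known for dose-dependent effects on stem cells and for the role of TCF7 and LEF1 in T cell development. IMP1 has been described to bind the mRNAs of beta-catenin and of the ubiquitin ligase subunit Btrc, and its own gene, Igf2bp1, has been described as a target of beta-catenin and TCF.

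The IMP1 group had the genotype Rosa26 I/+;Mx1-Cre tg/+, that is, 1 Rosa26 allele carried an IMP1 cassette, and Control had Rosa26 +/+;Mx1-Cre tg/+, with 3 libraries each. In both groups, whole marrow of the CD45.2 allotype had been transplanted into lethally irradiated CD45.1/2 hosts, the interferon-inducible Mx1-Cre transgene had been switched on by poly(I:C), an RNA analogue that sets off interferon, and 200 cells per library had been sorted 8 weeks after the last injection as CD45.2+ LSK CD150+ CD48- CD34-. LSK stands for lineage-negative, Sca-1-positive, Kit-positive. The hosts also carry a CD45.2 allele, and the labels do not say whether CD45.1+ cells were gated out. The labels call the libraries of a genotype biological replicates but do not give the age and sex of the mice or how many animals stand behind a library, so the p-values measure the spread between these libraries.

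The libraries held 25749898 to 27338450 counts in the Control group and 50220629 to 67083116 in the IMP1 group, on average 2.26 times as many, so depth went with genotype. Igf2bp1, the gene of IMP1, was counted 0, 0 and 1 times in Control and 1870, 2084 and 2016 times in IMP1 libraries (edgeR adjusted p = 0.00399, called in 15 of 17 alternative settings, but not by limma-voom, adjusted p = 0.0801, or by edgeR without Control 3, adjusted p = 0.0812), so the labels matched the genotype. The genes of the sort were present, with Kit at 369 to 609 CPM, Ly6a, which encodes Sca-1, at 306 to 536 CPM and Slamf1, which encodes CD150, at 80.5 to 157 CPM over the 6 libraries. CPM are counts per 1000000 counts of the library after TMM scaling. Cd34 mRNA was also present, at 263 to 317 CPM (Control) and 141 to 213 CPM (IMP1). Cd48 mRNA stood at 18.1, 1.86 and 2.84 CPM (Control) and at 26.8, 7.86 and 3.31 CPM (IMP1), highest in the first library of each group. The summed level of 9 LT-HSC markers was 1787 to 2029 CPM (Control) and 2355 to 2660 CPM (IMP1). Erythroid markers (8 in the table, none at 0 in all libraries) summed to 49.0 to 81.2 CPM and 106 to 393 CPM, with 1 called higher. Of 7 NK cell markers, 6 were under 1 CPM in every library, Ncr1, Gzma and Gzmb at 0, and Klrb1c stood at 2.37, 0.277 and 5.56 CPM (Control) and 11.8, 34.1 and 13.9 CPM (IMP1). The 10 neutrophil and monocyte markers, none at 0 in all libraries and none called, summed to 759.8 to 897 CPM (Control) and 542 to 976 CPM (IMP1). Of these, S100a8 stood at 243 and 171 CPM in IMP1 1 and IMP1 2 and at 5.24 to 12.0 CPM in the other 4 libraries, and Lyz2 at 436 to 516 CPM (Control) and 263 to 308 CPM (IMP1). The part of these shifts in the results below was not tested. Over all genes, edgeR's quasi-likelihood test called 27 of 12807 at an adjusted p under 0.05, or 0.211%. DESeq2 called 694, and edgeR called 0 without Control 3 and 1 or 2 without any other 1 library.

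RefSeq promoter windows on GRCm38.p6 were matched for 7 of the 10 genes, with 13 annotated start sites in all, to show where the letters of a TCF/LEF binding motif lie upstream of them. The motif searched was CTTTGA on either strand (TCAAAG when read on the gene's own strand), in the 250 bases before each start. It was found before 2 of the 13 starts, against 13.8% of 32851 promoter windows of the same length. The windows of the first of 2 annotated starts each of Ctnnb1 and Tcf7l2 are shown because those genes had the 2 lowest p values among the members, and those of Gsk3b and of the fourth Lef1 start because they hold the motif, which is in capitals. All 4 lie on the plus strand, at chr9:120933150-120933399, chr19:55741560-55741809, chr16:38088751-38089000 and chr3:131156044-131156293 in this order, 5′ to 3′. These positions belong to the reference and not to the build of the counts.
Ctnnb1: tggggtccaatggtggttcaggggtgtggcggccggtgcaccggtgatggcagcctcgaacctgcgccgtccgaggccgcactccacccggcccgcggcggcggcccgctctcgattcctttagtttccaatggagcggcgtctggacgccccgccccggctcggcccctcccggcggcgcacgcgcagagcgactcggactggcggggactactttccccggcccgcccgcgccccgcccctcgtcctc
Tcf7l2: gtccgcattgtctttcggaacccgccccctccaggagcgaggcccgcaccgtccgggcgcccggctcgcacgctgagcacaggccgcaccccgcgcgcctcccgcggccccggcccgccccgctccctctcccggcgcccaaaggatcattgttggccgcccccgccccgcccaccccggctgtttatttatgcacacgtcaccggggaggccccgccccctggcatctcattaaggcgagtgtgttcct
Gsk3b: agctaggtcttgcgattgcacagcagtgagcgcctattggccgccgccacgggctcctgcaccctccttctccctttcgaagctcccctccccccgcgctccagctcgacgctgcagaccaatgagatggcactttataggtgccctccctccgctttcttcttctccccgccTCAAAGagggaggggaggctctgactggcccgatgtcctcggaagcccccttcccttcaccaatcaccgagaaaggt
Lef1 start 4: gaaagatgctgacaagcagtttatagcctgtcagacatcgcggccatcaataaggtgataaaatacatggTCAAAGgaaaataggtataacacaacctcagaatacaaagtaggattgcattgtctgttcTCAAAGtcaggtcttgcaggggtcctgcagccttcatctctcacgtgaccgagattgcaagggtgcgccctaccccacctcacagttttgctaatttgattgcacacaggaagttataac
The Gsk3b match begins 77 bases before the start and those of Lef1 begin 180 and 120 bases before it. The windows shown for Ctnnb1, Tcf7l2 and Gsk3b held 74.8%, 72.8% and 62.0% G and C (74.4% and 40.8% at the second starts of Ctnnb1 and Tcf7l2), and that of the fourth Lef1 start held 44.8%. No match before the starts of Ctnnb1, Tcf7l2 and Axin2 says only that these letters are not in those windows. By transcript, the members comprised the long transcripts of Apc, Lrp6 and Gsk3b (12811, 9368 and 8303 bases) and those of the 7 others, of 2471 to 4260 bases.

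LRP6 is the co-receptor whose phosphorylated tail recruits axin. Lrp6 stood at 29.8, 44.5 and 39.4 CPM in the 3 Control libraries and at 57.4, 77.3 and 51.0 CPM in the 3 IMP1 libraries. Every IMP1 library lay above every Control library, and IMP1 2 was the highest. The means were 37.9 ± 7.47 and 61.9 ± 13.7 CPM (SD, n = 3), a log2 fold change of 0.71 (SE 0.25, 95% interval 0.14 to 1.28, edgeR adjusted p = 0.261). In sorted bulk samples, more cells with a transcript and more transcript per cell cannot be told apart.

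Of the core genes of the destruction complex, none of Gsk3b, Apc, Axin1 and Axin2 separated the groups. Gsk3b, which encodes the kinase that marks beta-catenin for degradation, stood at 361, 452 and 427 CPM in Control and at 390, 438 and 425 CPM in IMP1 libraries. The IMP1 libraries lay inside the Control range, and the 95% interval of the fold ran from 0.845 to 1.21 (log2 fold change 0.02, edgeR adjusted p = 0.967). The log2 fold change of Gsk3b became −0.19 when a trend on transcript length and GC content was removed from each library, also not called (adjusted p = 0.562). The span of Gsk3b overlaps that of the non-coding gene BC031361, which is in the table too. Apc encodes the large scaffold that is lost in colon cancer. It stood at 46.8, 29.2 and 31.9 CPM in Control and at 53.7, 34.5 and 30.2 CPM in IMP1 libraries. The first library of each group was the highest and the groups overlapped (log2 fold change 0.13, SE 0.31, edgeR adjusted p = 0.891). That value turned to −0.14 with the length and GC trend removed and to −0.15 without IMP1 1.

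Axin1, the constitutive scaffold of the complex, stood at 16.8, 17.6 and 23.3 CPM in Control and at 35.1, 30.9 and 19.2 CPM in IMP1 libraries. Of these, library IMP1 3 lay inside the Control range and the other two IMP1 libraries above it (log2 fold change 0.56, SE 0.32, edgeR adjusted p = 0.493). Axin2 encodes the inducible axin and is a widely used target gene of beta-catenin and TCF. It had 40, 34 and 6 counts in Control and 62, 9 and 1 counts in IMP1 libraries, or means of 1.03 ± 0.688 and 0.374 ± 0.522 CPM (SD, n = 3). On the CPM scale IMP1 1 lay among the Control libraries and Control 3 among the IMP1 libraries. The log2 fold change of Axin2 was −1.45 with a 95% interval from −4.60 to 1.70 (edgeR adjusted p = 0.694), which holds a fall as well as a rise. Library IMP1 1 held 62 of the 72 Axin2 counts of its group, and without it the log2 fold change was −3.72 (adjusted p = 0.385).

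Beta-catenin itself, which links cadherins to the cytoskeleton and acts as a transcriptional coactivator, separated the groups. Ctnnb1 stood at 178, 175 and 221 CPM in Control and at 260, 303 and 269 CPM in IMP1 libraries. The highest Control library stayed below the lowest IMP1 library. The means were 191 ± 26.0 and 277 ± 23.2 CPM (SD, n = 3), a log2 fold change of 0.54 (SE 0.13, 95% interval 0.23 to 0.84), with an unadjusted p of 0.00374 and an adjusted p of 0.126 by edgeR. DESeq2 called it (adjusted p = 0.00885), and over the 17 alternative settings the adjusted p ran from that value to 0.315.

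Of the 4 TCF/LEF factors, which bind DNA through an HMG box and recruit either beta-catenin or Groucho-type repressors, Tcf7l2 made up most of the counted signal. Tcf7l2 stood at 58.8, 67.1 and 60.2 CPM in Control and at 90.9, 119 and 109 CPM in IMP1 libraries. The Control libraries lay close together and all IMP1 libraries lay above them. The means were 62.0 ± 4.46 and 106 ± 14.2 CPM (SD, n = 3), a log2 fold change of 0.78 (SE 0.17, 95% interval 0.39 to 1.16), with an unadjusted p of 0.00161 and an adjusted p of 0.0991 by edgeR, the lowest of the 8 tested genes. DESeq2 called Tcf7l2 as well (adjusted p = 0.00305), and the adjusted p reached 0.258 in the other settings.

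Tcf7l1, which encodes the family member best known as a repressor, stood at 2.55, 9.54 and 3.04 CPM in Control and at 3.49, 5.76 and 6.53 CPM in IMP1 libraries. Control 2 was the highest of all libraries. The log2 fold change of 0.06 had an interval from −1.56 to 1.68 (edgeR adjusted p = 0.981), too wide to fix a direction, and it changed sign when 4 of the 6 libraries were left out in turn. Lef1 and Tcf7, the lymphoid members, were at or near 0. Lef1 had 0, 0 and 1 counts in Control and 6, 13 and 2 in IMP1 libraries, at most 0.188 CPM. With the counts pooled by group, 1 and 21, the ratio of the Lef1 levels was 8.73 (exact 95% counting interval 1.40 to 361). That interval leaves out the spread between libraries. On the CPM scale the groups overlapped, with Control 3 at 0.0400 CPM and IMP1 3 at 0.0385 CPM. The B cell precursor genes Ebf1 and Igll1 stood at 14.2 and 33.2 CPM in IMP1 2, the library with the most Lef1 counts, and at most 0.0942 and 0.141 CPM in the others. The 9 B cell markers, of which 3 were at 0 in all libraries, summed to 75.1 to 85.5 CPM (Control) and 80.0 to 147 CPM (IMP1), and their part in the Lef1 counts was not tested. Tcf7 had 0 counts in all 6 libraries, where a count of 0 allows up to 0.0390 CPM over the Control group and 0.0162 CPM over the IMP1 group (3 counts per group, counting error only). The span of Tcf7 overlaps that of Skp1 in the reference, and how reads in shared stretches were counted is not given in the sources used here. Of 14 T cell markers, Cd3g, Cd5, Themis and Trat1 had 0 counts in all libraries and Cd3e reached at most 0.0433 CPM. Others were present in every library, with Lck at 8.90 to 27.4 CPM, Cd247 at 1.40 to 5.68 CPM and Cd8b1 at 2.37 to 3.56 CPM. Cd8a reached 2.89 CPM, and Cd4 stood at 6.07 CPM in IMP1 3 and at 0 in the rest. The summed level of the 14 was 18.4 to 35.9 CPM (Control) and 24.2 to 36.8 CPM (IMP1).

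**Figure D1:**
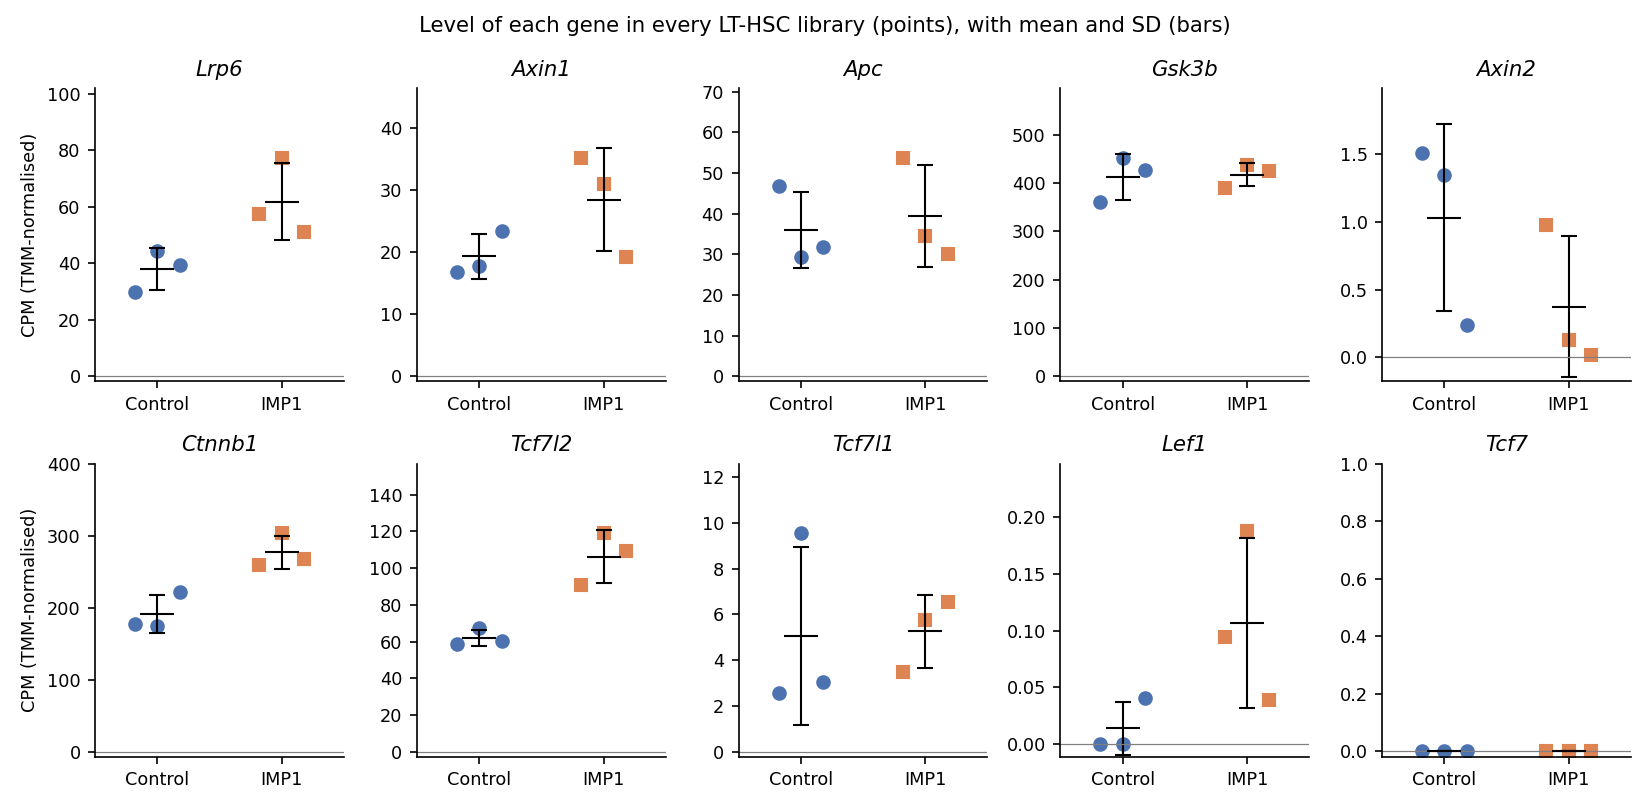
Level of each of the 10 genes in CPM (vertical axes, linear, a different scale per gene) in the 3 Control libraries (circles) and the 3 IMP1 libraries (squares), with the mean (horizontal bar) and SD (error bar). For Lrp6, Ctnnb1 and Tcf7l2 all 3 squares lie above all 3 circles, while Gsk3b overlaps and Tcf7 is at 0 in every library.

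Over the 10 genes, edgeR made 0 calls in either direction, where 0.0703% of all tested genes were called higher and 0.141% lower, and 0 by limma-voom. At an unadjusted p under 0.05, edgeR had 3 of the 8 tested genes, all higher, namely Tcf7l2, Ctnnb1 and Lrp6, where 14.3% of all tested genes met that limit. DESeq2 called 2 of 8, Ctnnb1 and Tcf7l2, both higher, against 2.43% called higher and 3.12% lower among the 12498 genes it gave an adjusted p (5.55% in all). The libraries of the groups did not overlap for 3 of 8, all higher in IMP1, against 21.9% of tested genes in either direction and 10.7% in that direction. Of the log2 fold changes, 7 were positive and 1 negative with a median of 0.33, beside a median of 0.03 over all 12807 tested genes. With all libraries thinned to 25749898 counts, the log2 fold changes of Ctnnb1, Tcf7l2 and Lrp6 were 0.52, 0.76 and 0.70, and after removal of the trend on length and GC content they were 0.56, 0.73 and 0.48.

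**Figure D2:**
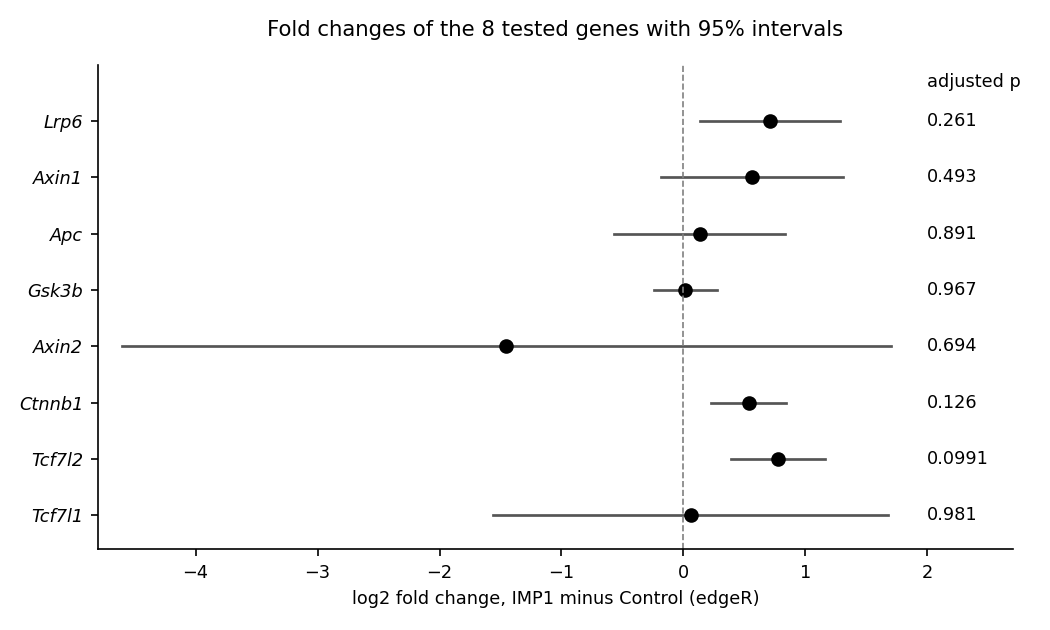
Log2 fold change (IMP1 minus Control, horizontal axis) of the 8 tested genes by edgeR, with 95% intervals as bars and the adjusted p at the right. The intervals of Lrp6, Ctnnb1 and Tcf7l2 lie above 0, those of Axin2 and Tcf7l1 are the widest, and no adjusted p is under 0.05.

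To compare genes with one another, levels were divided by the length of the longest annotated transcript, which may exceed the one in the cells. On this scale of CPM per kilobase, Ctnnb1 at 48.2 to 61.1 and Gsk3b at 43.4 to 54.4 overlapped in the Control libraries. In the IMP1 libraries Ctnnb1 at 71.7 to 83.8 lay above Gsk3b at 47.0 to 52.7 without overlap. Tcf7l2 came next in both groups, at 15.8 to 18.1 and 24.5 to 32.0. Axin1 (4.45 to 6.18 in Control) and Lrp6 (3.18 to 4.75) overlapped each other in both groups. Apc at 2.28 to 3.65 overlapped Lrp6 in Control but not in IMP1 libraries, where it stood at 2.35 to 4.19 and Lrp6 at 5.44 to 8.25. Tcf7l1 followed at 0.840 to 3.14 in Control and 1.15 to 2.15 in IMP1 libraries, then Axin2 at 0.0564 to 0.353 and 0.00452 to 0.228. The summed TCF/LEF level was 16.7 to 21.2 CPM per kilobase in Control and 25.6 to 34.0 in IMP1 libraries. Tcf7l2 held on average 91.4% of that sum in Control (lowest library 85.2%) and 94.3% in IMP1 libraries (lowest 93.2%). Tcf7l1 held 8.55% and 5.62% on average. Tcf7 entered the sum at 0, and how reads in its overlap with Skp1 were counted is not given.

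**Figure D3:**
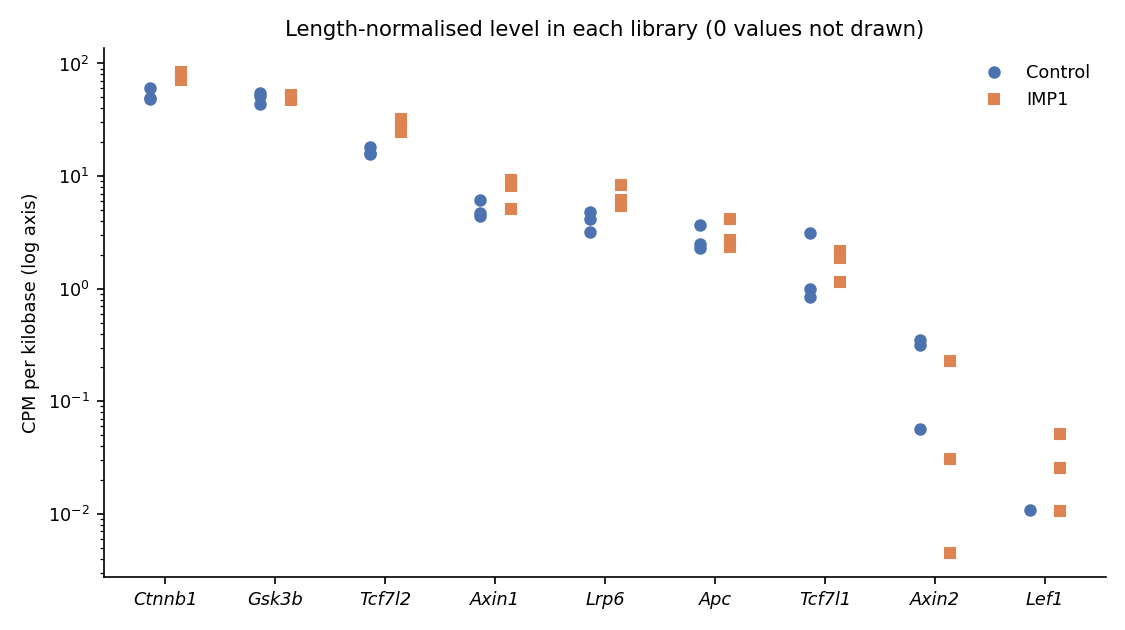
Length-normalised level (CPM per kilobase, log axis) of 9 genes in each Control library (circles) and IMP1 library (squares), ordered by the Control mean. Ctnnb1, Gsk3b and Tcf7l2 stand above the rest, Axin2 and Lef1 are the lowest, Tcf7 is left out because it is at 0 in all libraries, and single 0 values of Lef1 are not drawn.

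The rest of the pathway was followed through 123 further genes listed by role, of which 74 were tested. By edgeR 0 of the 74 passed, and limma-voom called 0. Before adjustment edgeR had p under 0.05 for 9 with a higher mean in IMP1 and 5 with a lower one (6.67% and 7.63% of all tested genes). DESeq2 called 4 higher, Fzd1, Ppp2ca, Ctnnal1 and Ccnd1, and 2 lower, Cby1 and Myc, where 2.43% and 3.12% of all genes with a DESeq2 adjusted p were called. In each list below, the tested gene of lowest p and the 2 most abundant were named. Ccnd1 was added outside that rule, after its values were seen. The groups did not overlap for 14 higher genes and 7 lower ones (10.7% and 11.1% of all tested genes).

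Wnt ligand transcripts were scarce. Of 19 ligand genes, 9 had 0 counts in all libraries and 1 was tested, Wnt2b, at 0.565 ± 0.883 CPM (Control) and 0.502 ± 0.474 CPM (IMP1, SD, n = 3). The genes that release ligands were both tested. Wls, the carrier of lipid-modified Wnt proteins to the cell surface, stood at 166 ± 24.9 against 201 ± 32.2 CPM (log2 fold change 0.28, edgeR adjusted p = 0.516). Porcn, the enzyme that adds the lipid, stood at 1.08 ± 1.27 against 0.796 ± 0.787 CPM.

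Among receptors, 9 of 14 were tested, with 5 positive and 4 negative log2 fold changes and 0 calls by edgeR. Fzd1 had 2, 0 and 4 counts in Control and 168, 295 and 276 in IMP1 libraries, or 0.0751, 0 and 0.160 against 2.64, 4.26 and 5.32 CPM. Every IMP1 library was far above every Control library, at a low level. The fitted log2 fold change of Fzd1 was 5.65 (SE 1.26, edgeR adjusted p = 0.102, DESeq2 adjusted p = 0.000715). It was 6.64 without Control 3 and 5.09 without Control 2, neither called by edgeR. Fzd3, another Frizzled receptor gene, stood at 11.1 ± 3.43 CPM in Control and at 21.2, 18.4 and 35.2 CPM in IMP1 libraries (log2 fold change 1.16, edgeR adjusted p = 0.246), also without overlap. Ryk, a Wnt co-receptor with an inactive kinase domain, stood at 8.72, 20.4 and 11.1 CPM in Control and at 19.8, 26.1 and 8.21 CPM in IMP1 libraries, with overlap. Without overlap, 2 of the 9 tested receptor genes were higher and 2 lower in IMP1, beside 10.7% and 11.1% of all tested genes. The 2 lower ones, Fzd5 and Lrp5, were named after their values were seen. Fzd5 stood at 1.62, 2.61 and 5.44 CPM in Control and at 0.605 ± 0.392 CPM in IMP1 libraries (SD, n = 3, log2 fold change −2.41, SE 0.94, edgeR adjusted p = 0.300). Lrp5, the co-receptor gene related to Lrp6, stood at 1.99, 3.13 and 2.28 CPM in Control and at 1.85, 1.79 and 1.83 CPM in IMP1 libraries (log2 fold change −0.43, SE 0.72, edgeR adjusted p = 0.840). Of 9 genes for R-spondins, their LGR receptors and the E3 ligases that remove Frizzled, 4 were tested and all 4 had positive log2 fold changes. Lgr4, a receptor for R-spondins, stood at 20.2, 11.2 and 26.3 CPM in Control and at 29.5, 44.9 and 45.5 CPM in IMP1 libraries (log2 fold change 1.05, SE 0.36, edgeR adjusted p = 0.251). Znrf3, one of the E3 ligases, stood at 83.7 ± 15.3 against 97.2 ± 8.16 CPM.

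Of 15 secreted and membrane inhibitors, 6 were tested, 5 with positive and 1 with negative log2 fold changes and 0 called. Sfrp2, a soluble Frizzled-like binder of Wnt, stood at 1.41 ± 0.895 against 4.92 ± 1.60 CPM without overlap (log2 fold change 1.80, edgeR adjusted p = 0.342). Sfrp1 stood at 3.08, 5.22 and 1.24 CPM in Control and at 14.5, 0.938 and 12.6 CPM in IMP1 libraries, with IMP1 2 below all other libraries. Kremen1, a receptor for Dickkopf inhibitors, stood at 5.42 ± 6.20 against 4.10 ± 1.71 CPM. All 3 Dishevelled genes, which relay the receptor signal, were tested. Dvl3 stood at 67.9 ± 3.90 against 49.9 ± 9.71 CPM, lower in IMP1 without overlap (log2 fold change −0.45, edgeR adjusted p = 0.386), and Dvl1 stood at 9.30 ± 5.44 against 13.1 ± 4.47 CPM.

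All 19 partners of the destruction complex and of beta-catenin degradation were tested, with 12 positive and 7 negative log2 fold changes, a median of 0.16 and 0 calls by edgeR. Of the subunits of protein phosphatase 2A, 1 was higher and 1 lower in mean. Ppp2ca, the catalytic subunit, stood at 71.0 ± 6.59 against 103 ± 3.70 CPM (log2 fold change 0.53, SE 0.15, edgeR adjusted p = 0.172), and Ppp2r1a, the scaffold subunit, at 230.1 ± 18.2 against 181 ± 6.13 CPM (−0.35, SE 0.11, edgeR adjusted p = 0.230), neither with overlap. Btrc, whose protein recognises phosphorylated beta-catenin, stood at 50.3, 42.0 and 52.6 CPM in Control and at 80.2, 60.0 and 31.0 CPM in IMP1 libraries. The IMP1 libraries of Btrc lay on both sides of the Control range (log2 fold change 0.24, SE 0.33, edgeR adjusted p = 0.804, and −0.08 without IMP1 1). Skp1, a core subunit of the same ligase, stood at 688 ± 69.1 against 801 ± 93.2 CPM.

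Nuclear cofactors and repressors had 11 positive and 10 negative log2 fold changes among 21 tested of 22, a median of 0.03 and 0 calls by edgeR. Cby1, which encodes Chibby, an antagonist that binds beta-catenin, stood at 34.5, 36.1 and 43.3 CPM in Control and at 17.8, 21.7 and 21.9 CPM in IMP1 libraries. All IMP1 libraries lay below the Control libraries (log2 fold change −0.89, SE 0.24, edgeR adjusted p = 0.162, DESeq2 adjusted p = 0.0429). The co-repressor gene Hdac1 stood at 327 ± 18.8 against 254 ± 46.6 CPM and Tbl1xr1, which encodes an exchange factor between co-repressors and coactivators, at 98.2 ± 7.69 against 137 ± 21.7 CPM, neither with overlap.

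Of 17 genes described as beta-catenin targets, 9 were tested, 6 with positive and 3 with negative log2 fold changes, and 0 were called by edgeR. The list shares Lgr5, Rnf43, Znrf3, Notum and Dkk1 with the lists above. Myc, which encodes a growth-promoting transcription factor, stood at 379, 399 and 368 CPM in Control and at 270, 189 and 206 CPM in IMP1 libraries (log2 fold change −0.79, SE 0.15, edgeR adjusted p = 0.0760, DESeq2 adjusted p = 3.41e-05). Ccnd1, which encodes cyclin D1, stood at 3.72, 3.84 and 4.24 CPM in Control and at 14.7, 8.08 and 17.6 CPM in IMP1 libraries (log2 fold change 1.78, SE 0.48, edgeR adjusted p = 0.154, DESeq2 adjusted p = 0.0264). Both target genes separated the groups, in opposite directions. Of the 9 tested targets, 3 were higher and 1 lower in IMP1 without overlap, beside 10.7% and 11.1% of all tested genes. Cd44, an adhesion receptor, stood at 161 ± 26.1 against 129 ± 19.1 CPM with overlap. The feedback genes Nkd1, Nkd2, Sp5 and Notum were not tested, and of these Sp5 and Notum had 0 counts in all libraries.

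Among the relatives of beta-catenin and the cadherins, 4 of 8 were tested and all 4 had positive log2 fold changes, with 0 called by edgeR. Ctnnal1, an alpha-catenin-like gene, stood at 46.6, 10.6 and 25.7 CPM in Control and at 75.7, 77.6 and 53.7 CPM in IMP1 libraries (log2 fold change 1.32, SE 0.47, edgeR adjusted p = 0.271, DESeq2 adjusted p = 0.0394). Ctnna1, which ties the cadherin complex to actin, stood at 85.6 ± 31.1 against 119 ± 25.6 CPM, and Ctnnd1, which encodes p120-catenin, at 44.2 ± 16.1 against 62.8 ± 14.4 CPM, both with overlap. The epithelial and endothelial cadherin genes Cdh1 and Cdh5 had 0 counts in all libraries.

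**Figure D4:**
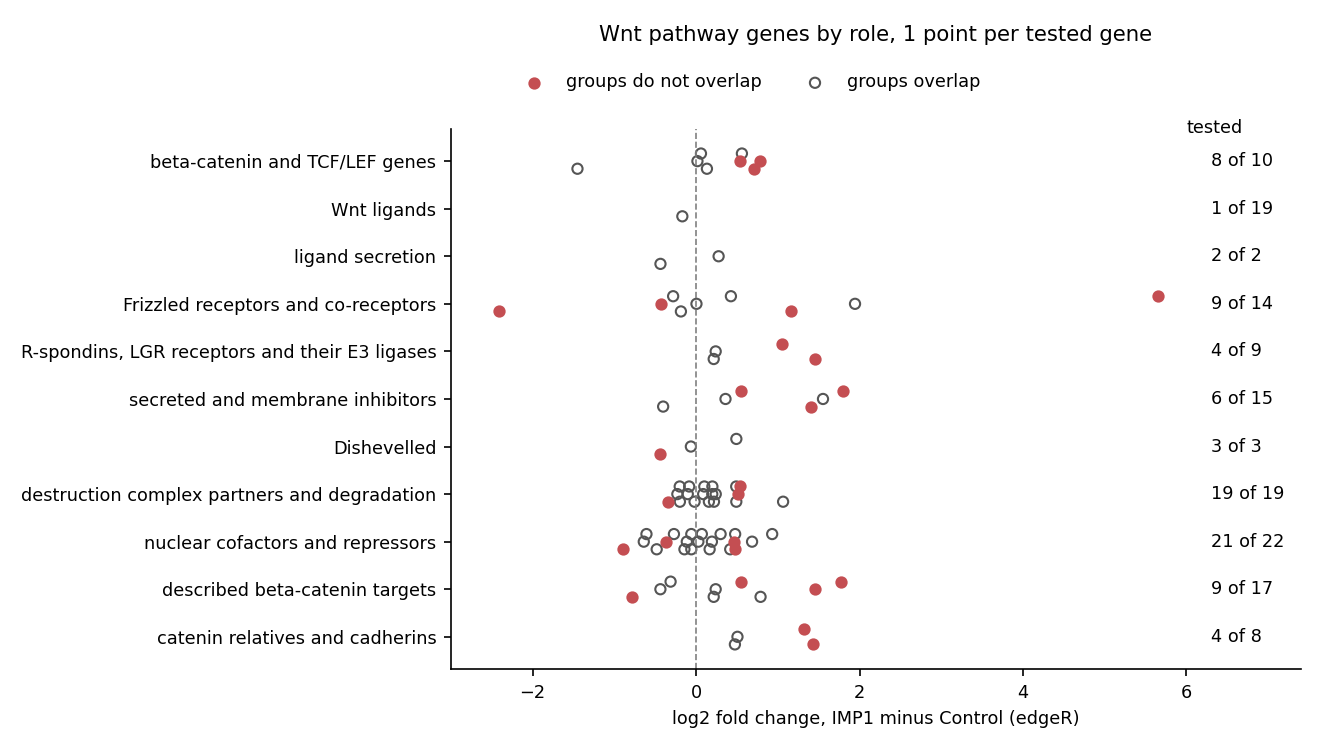
Log2 fold change (IMP1 minus Control, horizontal axis, edgeR) of every tested gene of the 11 role lists (rows), with filled points where the groups do not overlap and open points where they do. The number tested of the number listed is at the right, the Fzd1 point lies at 5.65, and filled points lie on both sides of 0.

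The genes whose pattern over the 6 libraries was most like that of Ctnnb1, by Pearson's r of log2 CPM among 8896 genes of at least 10 CPM, were Hook2 (0.992), H2-Q7 (0.992), which has near-identical copies, and Helb (0.991). For Tcf7l2 they were Dtx3 (0.996), Pnisr (0.995) and Map3k1 (0.994). With 6 libraries in 2 groups, 190 genes reached an r of 0.9 with Ctnnb1 and 173 with Tcf7l2. These values are a description, since all points come from the same libraries.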

How the data were processed

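The cDNA came from a SMARTer Ultra Low kit, per the labels' protocols, and carries no molecular identifiers. The deposited values are raw counts of reads by Entrez gene identifier for each of 6 libraries, per the file headers. The submitters' processing notes name TopHat2 2.0.10 and mm9 without their roles. For the counting program, strand setting and annotation the entry is: not given in the sources used here. Symbols came from RefSeq (GRCm38.p6), which matched 21615 of 21761 identifiers, and transcript lengths from GENCODE on the same assembly. 0 columns were unmatched.

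The counts were tested with edgeR 4.0.16 in R 4.3.3 (glmQLFit, glmQLFTest, filterByExpr, TMM, genotype as the single term, all 6 libraries) with Benjamini-Hochberg adjustment over 12807 genes and a threshold of 0.05. Standard errors are the absolute log2 fold change over the square root of F. In simulated data the fit called 26% of 100 genes changed by 1 on the log2 scale and 74% of 100 genes changed by 3. Of its 103 calls there, 3 were false. The simulated spread between libraries followed a trend on abundance alone, without spread particular to a gene. These rates may therefore not hold for the measured counts. Alternatives were DESeq2 1.42.0, limma-voom (limma 3.58.1), legacy = FALSE, other scalings and filters, thinning, a loess trend on length and GC content (span 0.4), the replicate number as a block, and each library left out. Named genes were the members, Igf2bp1, Btrc and, per list, any called gene, the gene of lowest p and the 2 most abundant. The members and lists were chosen with earlier results of these data known. Counting intervals are exact and cover counting error only. No 2 libraries of a group were duplicates (chi-square per degree of freedom at least 61.0).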

Additional observations from a re-analysis of the deposited data

How the results depend on the processing

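The number of genes called over the whole table moved most with the tool. Against 27 by the main edgeR test, DESeq2 called 694, the filter of 1 CPM in 3 libraries 58, legacy = FALSE 49, no scaling beyond totals 16 (9 higher and 7 lower, against 9 and 18), limma-voom 11, the length and GC trend removed 11 and the replicate block 4. Leaving out 1 library gave 0 (without Control 3) to 2. The number of the 10 genes called was 0 in the main test and 2 by DESeq2, and of the other pathway genes 0 and 6. It was 0 for both in the other settings run, including each library left out. Without scaling the median of all genes shifted from 0.03 to 0.12 on the log2 scale. Deviations from the group means correlated at 0.0149, 0.0310 and −0.00831 between same-numbered libraries, and at −0.0302 to 0.0176 between the others. With 3 libraries per group, these values cannot show whether the libraries were paired. Under the replicate block, edgeR gave Ctnnb1 an adjusted p of 0.209 and Tcf7l2 one of 0.178.

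Of the named genes, 8 of the values outside the left-out libraries passed the threshold anew, all by DESeq2. Direction turned for Tcf7l1 when thinned (−0.018), for Apc (−0.14) and Gsk3b (−0.19) with the length and GC trend removed, and for Wnt2b and Kremen1 under limma-voom (0.30 and 0.18) and the replicate block (0.62 and 0.13). With 1 library left out, log2 fold changes ran from −0.26 to 0.91 for Tcf7l1, −0.15 to 0.37 for Apc, −0.073 to 0.087 for Gsk3b, −1.0 to 3.08 for Wnt2b, −1.40 to 1.17 for Porcn, −0.82 to 1.16 for Kremen1 and −0.083 to 0.54 for Btrc. Igf2bp1 lost its call under limma-voom (adjusted p = 0.0801) and without Control 3 (0.0812). The cause of these moves was not tested. Counts of Lef1, Tcf7, Axin2, Fzd1 and most ligand genes were at or near single counts in at least some libraries, which limits the precision of their values.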
